A study of Mus musculus with 8 samples.

Results

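The genes described here encode voltage-gated and related ion channels. They were chosen by gene symbol alone: calcium channel subunits (Cacna, Cacnb and Cacng), potassium channel genes whose symbols start with Kcn, sodium channel pores and beta subunits (Scn), pacemaker channels (Hcn) and ryanodine receptors (Ryr). Of 24421 genes in the expression table, 142 met the rule: 94 potassium, 26 calcium, 13 sodium, 4 pacemaker and 3 ryanodine receptor genes, and 2 antisense transcripts of Kcnmb4 whose names match it. RNA sequencing compared wild type (WT) W9.5 mouse embryonic stem cells (mESCs) with a Hira-null line, Clone104, and both lines carry the histone variant H3.3 tagged with HA. HIRA is a histone chaperone that deposits H3.3 outside of DNA replication. The 4 groups were Hira-null at day 15, WT at day 15, Hira-null at day 0 and WT at day 0, with 2 libraries from different biological samples in each. Cells at day 0 were undifferentiated and grown in LIF on gelatin, and cells at day 15 came from hanging drop embryoid bodies that were later plated and formed beating areas. The Hira-null line is 1 clone, so the genotype and the history of that clone cannot be told apart.

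Voltage-gated channels open when the membrane potential changes and let one kind of ion pass. Sodium channels drive the upstroke of the action potential in nerve, skeletal and working heart muscle. L-type calcium channels carry the plateau of the cardiac action potential and trigger calcium release through ryanodine receptors, while potassium channels repolarise the cell. T-type calcium channels and the HCN channels, which pass the pacemaker current, are known for spontaneous beating, and the embryonic heart expresses T-type channels strongly. Many other members of the same families act mainly in neurons, where they set firing and transmitter release. Pore-forming subunits assemble with accessory subunits (alpha2delta, beta and gamma for calcium, KChIP, Kvbeta and KCNE for potassium) that change their gating or traffic.

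The expression unit was FPKM, fragments per kilobase of transcript, scaled to sequencing depth. A gene with an FPKM of at least 1 in 2 or more libraries of the 8 was tested with limma on log2(FPKM + 1), a scale that understates the change of low genes, and a gene is said to have risen or fallen where its p adjusted over all 14337 genes tested was 0.05 or less. Each library held between 6913871 and 11106321 counted fragments. Hira itself was at 12.4 and 11.4 FPKM in Hira-null cells at day 0, against 27.3 and 28.5 FPKM in WT (log2 fold change −1.17, SE 0.10, adjusted p 8.48e-05). At day 15 it was at 16.7 and 19.8 FPKM in the libraries labelled Hira-null, against 15.8 and 15.5 FPKM in WT (0.20, SE 0.11, adjusted p 0.167), so its level did not separate the day 15 libraries by their labels. The deleted part of the gene is not stated in the sources at hand, and directions at day 15 rest on the labels. The cultures were mixed in their markers at day 15. A summed set of 8 cardiomyocyte markers was at 165 to 168 FPKM in libraries labelled Hira-null, against 241 to 253 FPKM in WT, 8 neuron markers at 245 to 252 FPKM and 100.5 to 104.1 FPKM, 6 neural progenitor markers at 516 to 520 FPKM and 228 to 230 FPKM, 6 glia markers at 7.52 to 8.49 FPKM and 2.25 to 3.27 FPKM, 5 smooth muscle markers at 665 to 672 FPKM and 988 to 1082 FPKM, 6 endothelium markers at 15.4 to 16.5 FPKM and 37.6 to 38.4 FPKM, and 5 visceral endoderm markers at 2.73 to 3.47 FPKM and 92.4 to 93.7 FPKM. Of these lists, 7 of 8 neuron, 5 of 6 neural progenitor and 3 of 4 tested glia markers rose, while 4 of 8 cardiomyocyte (with 1, Nppa, higher by 1.97, adjusted p 9.86e-05), 5 of 5 smooth muscle, 4 of 6 endothelium and 3 of 4 tested visceral endoderm markers fell. Of all genes tested, 18.6% rose and 18.8% fell at day 15. Nppa, Rbfox3 and Aqp4 reached FPKM 1 only in Hira-null at day 15, and Tie1 only in WT at day 15. To be tested they had to be higher in that group, so these marker counts are no support for a direction. No marker of these lists was at 0 in both libraries of a day 15 group apart from S100b in both genotypes. The neuron and progenitor sums are not particular to neural cells. At day 0, neuron markers summed to 230 to 237 FPKM in Hira-null cells and 205 FPKM in WT, mostly from Stmn2. Progenitor markers summed to 272 to 274 FPKM and 225 to 248 FPKM in that order, mostly from Sox2. At day 15, 5 pluripotency markers summed to 266 to 276 FPKM in libraries labelled Hira-null and 220 to 227 FPKM in WT. For 5 skeletal muscle markers the sums were 1.65 to 1.83 FPKM and 7.05 to 7.97 FPKM.

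Of the 142 channel genes, 72 passed the filter on low values and 70 did not. The tested members were 43 of the 94 potassium, 18 of the 26 calcium, 5 of the 13 sodium, 3 of the 4 pacemaker and all 3 ryanodine receptor genes. Of the 72, 12 passed through a single group, 10 of them through Hira-null at day 15 and 2 through Hira-null at day 0. These 12 had to be higher in that group, so counts over the tested members describe the table and are not support for a direction. The 12 include Kcnk2, Kcnc1, Ryr3, Cacna2d3 and Kcnd2, which passed only through Hira-null at day 15. They also include Kcnk4 and Kcnc4, which passed only through Hira-null at day 0. The direction of these genes in that group is no support either. Among the untested genes no value was above 1.75 FPKM, and Kcnk15, Kcna10 and Kcnmb3 were listed at 0 in every library. More members reached FPKM 1 in both libraries of a Hira-null group than of the WT group of the same day: 57 against 49 at day 15, and 40 against 29 at day 0. The same count was not made over all genes, so it is not shown to be particular to the members. At day 15, 44 members reached this level in both genotypes, and 22 members did so in all 4 groups. Exons of 17 tested members overlap another gene in the NCBIM37 annotation, so their reads may be shared, among them Kcnq5, Kcnmb4, Kcnab3, Cacnb1, Cacna1d, Cacna1h, Cacnb2, Kcnj3, Ryr3, Hcn3, Kcnd3, Kcnab2, Kcna6, Ryr1, Cacna1a and Cacna2d2.

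**Figure D1:**
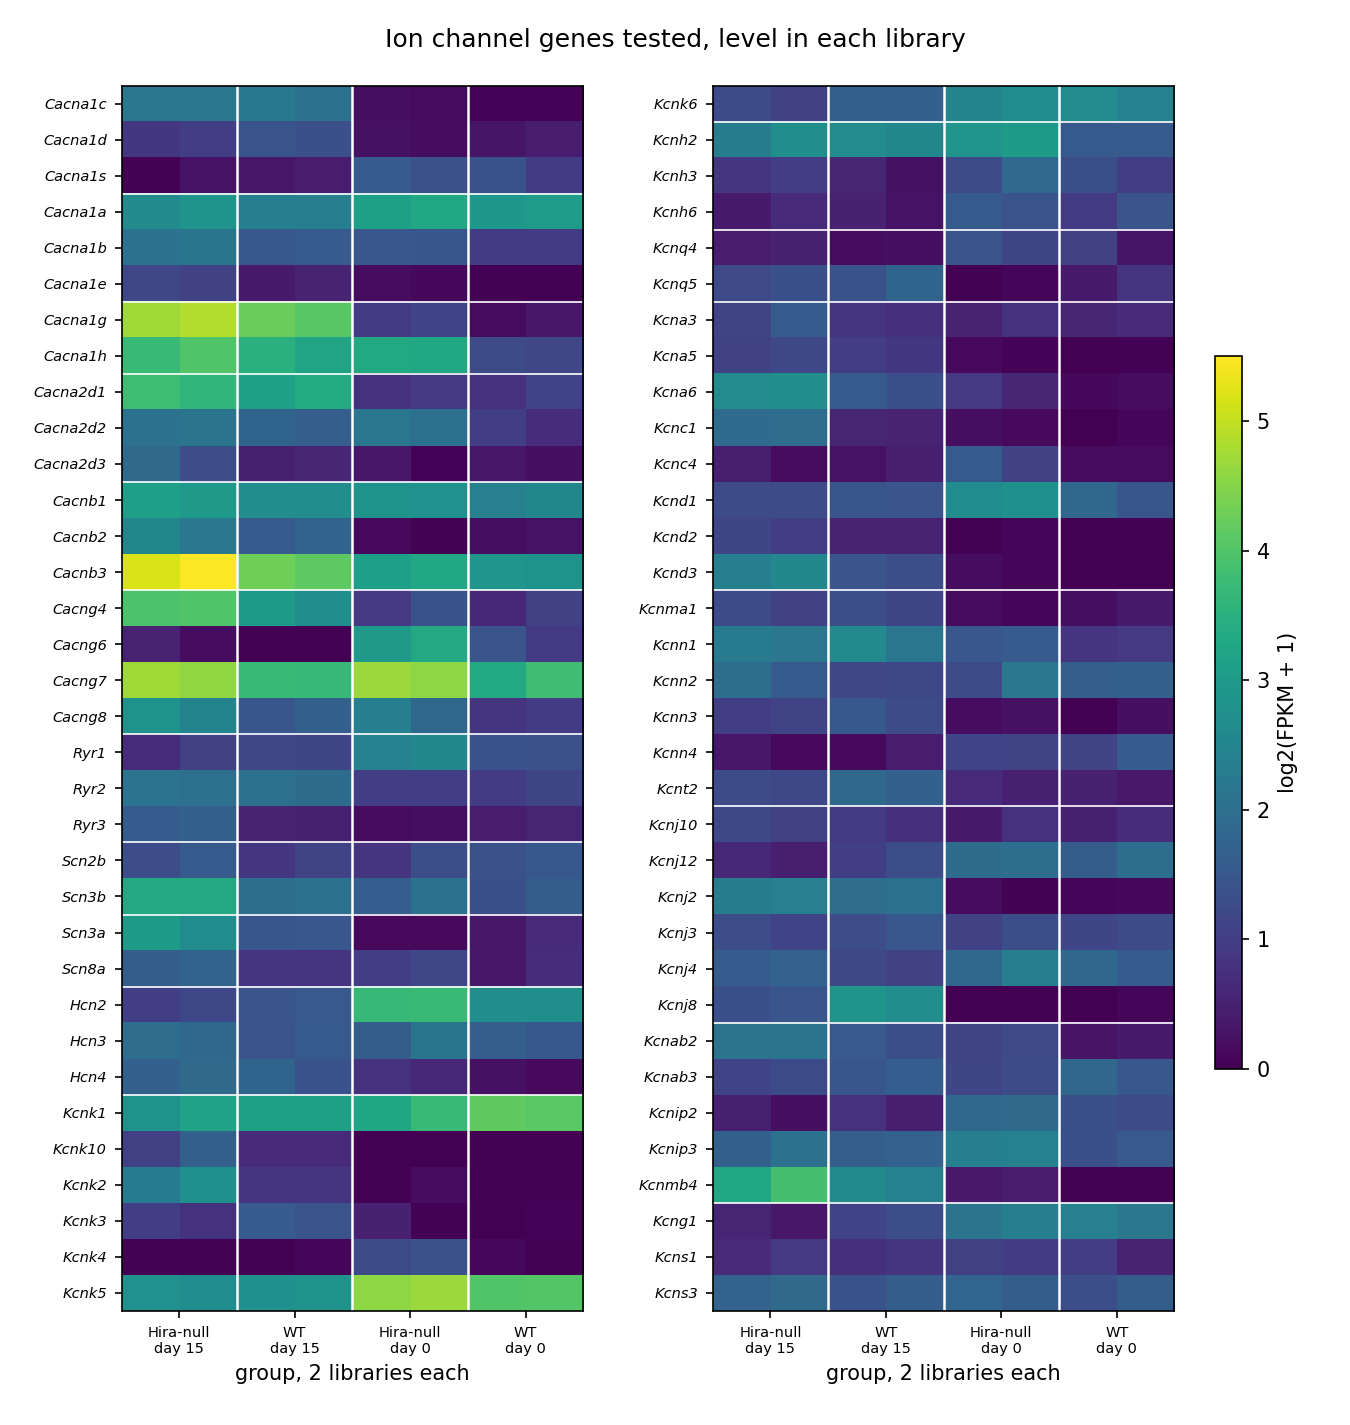
Level of 68 of the 72 tested channel genes as log2(FPKM + 1), one row per gene and one column per library, grouped by family with white lines between families and between groups. Cacnb3 (35.5 and 44.1 FPKM) and Cacna1g (25.1 and 28.2 FPKM) are among the brightest rows in the day 15 libraries labelled Hira-null, and Kcnk5 and Cacng7 are among the brightest at day 0.

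Per unit of transcript length, calcium channel genes gave the largest summed level of the 5 channel classes at day 15. Their 26 values summed to 166 and 174 FPKM in libraries labelled Hira-null, against 98.4 and 92.3 FPKM in WT. The 94 potassium channel genes summed to 116 and 130 FPKM in libraries labelled Hira-null, against 94.8 and 91.1 FPKM in WT, and the 13 sodium channel genes to 30.8 and 28.0 FPKM and 15.6 and 17.8 FPKM. The pacemaker sums were closer, at 6.56 and 6.90 FPKM in libraries labelled Hira-null, against 6.48 and 6.14 FPKM in WT. At day 0 the Hira-null sums were again the higher ones: 78.6 and 78.2 FPKM against 36.6 and 40.3 FPKM in WT for calcium, and 102 and 113 FPKM against 78.0 and 76.1 FPKM in WT for potassium channel genes. The pacemaker genes summed to 14.6 and 16.0 FPKM in Hira-null cells and to 7.96 and 7.66 FPKM in WT at day 0.

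At day 15, 25 of the 72 tested channel genes rose in the libraries labelled Hira-null and 5 fell relative to WT, where 18.6% of all genes tested rose and 18.8% fell. The median log2 fold change of the 72 was 0.35, and that of all genes tested was 0.01. Calcium channel genes took 10 of the rises and none of the falls among 18, potassium channel genes 11 rises and all 5 falls among 43, sodium channel genes 3 rises among 5, and ryanodine receptors 1 rise among 3. None of the 3 tested pacemaker genes passed the test in this comparison, and limma-voom on recovered fragments, an alternative chosen after seeing the data, called none of them. By limma at an unadjusted p under 0.05, 1 calcium and 1 pacemaker gene were lower, and 0 sodium and 0 ryanodine receptor genes, while limma-voom called 2 calcium, 0 sodium and 1 ryanodine receptor genes lower. Over all 142 members, without a filter, both libraries labelled Hira-null lay above both WT libraries for 70 genes (49.3%) and below them for 25 (17.6%), against 24.3% and 23.4% of all genes in the table. Without WT day 15 replicate 1, WT day 15 replicate 2 or Hira-null day 15 replicate 2, fewer members passed, as did fewer of all genes tested. The median log2 fold change of the 72 was then 0.34, 0.35 and 0.31, and that of all genes 0.01 each time. In whole cultures, fewer cells of a type and less RNA per cell cannot be told apart, and the part of the higher neuron and neural progenitor markers in these rises was not tested.

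On the log2(FPKM + 1) scale, the members that rose most at day 15 were potassium and sodium channel genes. Kcnk2, which encodes a 2-pore-domain potassium channel opened by membrane stretch and lipids, was at 3.78 and 5.81 FPKM in libraries labelled Hira-null, against 0.772 and 0.787 FPKM in WT. Its mean was 6.15-fold higher (log2 fold change 1.68, SE 0.20, adjusted p 3.93e-04). Kcnc1, a voltage-gated potassium channel that lets neurons fire at high rates, was at 2.79 and 2.91 FPKM in libraries labelled Hira-null, against 0.474 and 0.453 FPKM in WT. The fold of the means was again 6.15, and the replicates of each genotype differed by little beside this gap (1.40, SE 0.16, adjusted p 3.00e-04). Kcna6, a delayed rectifier of the Shaker family, was at 5.30 and 5.60 FPKM in libraries labelled Hira-null, against 1.96 and 1.52 FPKM in WT (1.24, SE 0.18, adjusted p 9.74e-04). In each of these 3 genes both libraries labelled Hira-null were above both WT libraries, by more than the replicates differed, but such an order was a condition for naming them. Kcnk2 and Kcnc1 also passed the filter only through Hira-null at day 15, so they had to be higher there.

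Sodium channel genes moved in the same direction at day 15. Scn3a, the pore of a sodium channel typical of embryonic neurons, was at 6.94 and 5.42 FPKM in libraries labelled Hira-null, against 1.78 and 1.79 FPKM in WT, a 3.46-fold difference (log2 fold change 1.36, SE 0.18, adjusted p 7.07e-04). Scn3b, a beta subunit that adjusts the gating of sodium channel pores, was at 8.92 and 8.99 FPKM in libraries labelled Hira-null, against 2.95 and 3.22 FPKM in WT (1.29, SE 0.18, adjusted p 9.22e-04). Scn8a, a pore found along adult axons and named here after its values were seen, was at 2.06 and 2.38 FPKM and at 0.798 and 0.806 FPKM in the same order (0.84, SE 0.18, adjusted p 0.00724, and 0.0631 or 0.0608 without WT day 15 replicate 1 or 2). The 2 other tested sodium channel genes did not pass.

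Among calcium channel genes at day 15, the rises were 2 of 3 tested pores of the P/Q, N and R types, 2 of 2 T-type pores and 6 of 10 accessory subunits. Cacnb3, a beta subunit common in brain, reached the highest level of all members, 35.5 and 44.1 FPKM in libraries labelled Hira-null, against 18.5 and 16.5 FPKM in WT (log2 fold change 1.14, SE 0.13, adjusted p 3.26e-04). Cacng4, related to gamma subunits and known as a partner of AMPA-type glutamate receptors, was at 14.5 and 15.2 FPKM in libraries labelled Hira-null, against 7.01 and 5.64 FPKM in WT (1.12, SE 0.22, adjusted p 0.00421). This call was lost without WT day 15 replicate 2 (adjusted p 0.0781). Cacna2d3, an alpha2delta subunit, was at 2.73 and 1.48 FPKM in libraries labelled Hira-null, against 0.402 and 0.508 FPKM in WT (1.06, SE 0.23, adjusted p 0.00657, and 0.0638 without WT day 15 replicate 1). The N-type pore gene Cacna1b and the R-type pore gene Cacna1e, which serve transmitter release and neuronal firing and were named here after their values were seen, also rose, by log2 fold changes of 0.56 and 0.65 (adjusted p 0.0161 and 0.0132). Cacna1b lost this call without Hira-null day 15 replicate 2 (0.0553), WT day 15 replicate 1 (0.102) or WT day 15 replicate 2 (0.0777), and Cacna1e without WT day 15 replicate 1 (0.0708) or with a pseudocount of 0.1 (0.0514). The L-type pore of working heart muscle, Cacna1c, was at 3.59 and 3.61 FPKM in libraries labelled Hira-null, against 3.67 and 3.15 FPKM in WT (0.06, SE 0.16, adjusted p 0.783), so the genotypes overlapped. Cacna1d, the L-type pore of the sinoatrial node, was at 0.864 and 1.03 FPKM in libraries labelled Hira-null, against 1.68 and 1.52 FPKM in WT, and missed the threshold (−0.42, SE 0.16, adjusted p 0.0721), although limma-voom called it lower (−0.74, adjusted p 0.0103).

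The ryanodine receptors, which release calcium from the sarcoplasmic or endoplasmic reticulum, differed among themselves at day 15. Ryr3, the form known from brain and developing muscle, was at 2.04 and 2.29 FPKM in libraries labelled Hira-null, against 0.468 and 0.393 FPKM in WT, a 5.03-fold difference (log2 fold change 1.14, SE 0.16, adjusted p 8.71e-04). Aven on the other strand shares part of its exons. Ryr2, the cardiac form, was at 3.29 and 3.01 FPKM in libraries labelled Hira-null, against 3.04 and 2.86 FPKM in WT, with overlapping genotypes (0.07, SE 0.16, adjusted p 0.755). Kcnmb4, the neuronal beta subunit of the large-conductance calcium-activated potassium channel, was at 8.71 and 13.8 FPKM in libraries labelled Hira-null, against 5.07 and 4.33 FPKM in WT (1.08, SE 0.21, adjusted p 0.00436, and 0.0570 without WT day 15 replicate 2).

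Potassium channel genes supplied the 5 falls at day 15. Kcnj8, the pore of the ATP-sensitive potassium channel of vascular smooth muscle and pericytes, was at 1.54 and 1.73 FPKM in libraries labelled Hira-null, against 6.21 and 5.5 FPKM in WT (log2 fold change −1.38, SE 0.16, adjusted p 3.26e-04). Its WT level was 3.58 times that of the libraries labelled Hira-null, and the call held without any 1 library. The summed smooth muscle and endothelium markers given above were also lower in those libraries, and their part in this fall was not tested. Kcng1, a silent subunit that alters other delayed rectifiers, was at 0.485 and 0.272 FPKM in libraries labelled Hira-null, against 1.15 and 1.51 FPKM in WT (−0.76, SE 0.18, adjusted p 0.0114). The call was lost without Hira-null day 15 replicate 2 (adjusted p 0.0529), without WT day 15 replicate 1 (0.0530) and without WT day 15 replicate 2 (0.115). Kcnj12, an inward rectifier that holds the resting potential, was at 0.551 and 0.387 FPKM in libraries labelled Hira-null, against 1.02 and 1.48 FPKM in WT (−0.61, SE 0.19, adjusted p 0.0335). Kcnt2, a sodium-activated potassium channel, was at 1.39 and 1.30 FPKM and at 2.63 and 2.26 FPKM in the same order (−0.55, SE 0.17, adjusted p 0.0284). Both calls were lost whenever any 1 of the 4 day 15 libraries was left out, with adjusted p of 0.0517 to 0.237 for Kcnj12 and 0.0528 to 0.154 for Kcnt2. Kcnk6, a 2-pore-domain channel, was at 1.40 and 1.13 FPKM and at 2.23 and 2.21 FPKM in this order (−0.51, SE 0.16, adjusted p 0.0344). It lost its call without Hira-null day 15 replicate 2 (0.126), WT day 15 replicate 1 (0.172) or WT day 15 replicate 2 (0.166).

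**Figure D2:**
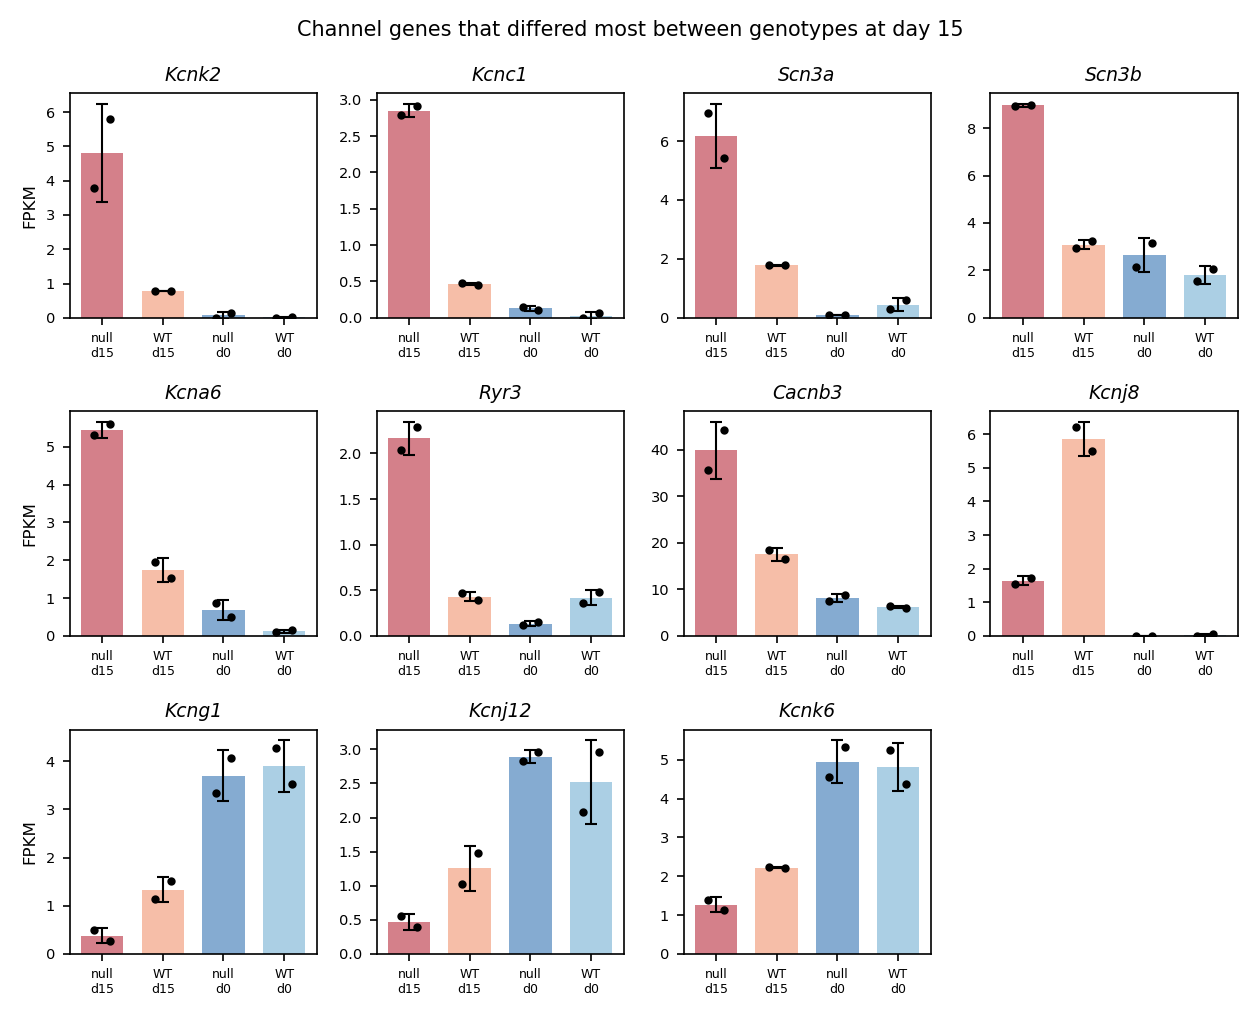
FPKM of 11 channel genes in the 4 groups, with bars for the mean, error bars for the SD and points for the 2 libraries of a group, and an axis of its own for each gene. Kcnk2 to Cacnb3 stand highest in the day 15 libraries labelled Hira-null, Kcnj8 stands highest in WT at day 15, and Kcng1, Kcnj12 and Kcnk6 are higher at day 0 than at day 15 in both genotypes.

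Promoters of a rising and a falling gene are shown to set their composition side by side. Each window runs from 250 bases before to 50 bases after the RefSeq start (build GRCm38.p6), on the gene's own strand, with capitals for GGGCGG or its complement CCGCCC (a core of the SP1 site) and for CAGATG or its complement CATCTG (an E-box bound by neurogenic factors). Kcnc1 lies on the plus strand at chr7:46396218-46396517 and Kcnj8 on the minus strand at chr6:142571565-142571864.
Kcnc1: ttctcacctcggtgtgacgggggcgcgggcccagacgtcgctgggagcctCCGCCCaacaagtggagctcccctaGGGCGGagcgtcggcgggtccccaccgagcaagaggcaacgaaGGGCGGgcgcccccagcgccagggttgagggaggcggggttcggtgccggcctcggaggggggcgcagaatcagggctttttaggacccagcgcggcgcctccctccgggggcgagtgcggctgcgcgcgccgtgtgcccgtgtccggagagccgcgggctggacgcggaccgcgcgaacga
Kcnj8: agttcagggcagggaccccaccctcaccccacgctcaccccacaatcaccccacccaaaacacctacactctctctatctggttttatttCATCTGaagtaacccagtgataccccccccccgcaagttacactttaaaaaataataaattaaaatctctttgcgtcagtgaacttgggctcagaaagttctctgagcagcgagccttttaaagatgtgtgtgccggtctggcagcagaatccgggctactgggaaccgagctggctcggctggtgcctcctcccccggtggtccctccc
The Kcnc1 window holds 41 CG pairs, a GC content of 74.7% and 3 SP1 cores, and the Kcnj8 window 9 CG pairs, 53.3% GC, no SP1 core and 1 E-box. RefSeq gave 137 windows for 102 of the 142 channel genes. Their median GC content was 58.3%, against 52.7% over all 32841 windows, and GGGCGG in either strand stood in 47.5% of them, against 35.7% of all. The TATA sequence TATAAA was in 4.38% of channel windows and 13.6% of all, the GATA sequence AGATAA in 3.65% and 11.2%, and CAGATG in 19.0% and 17.2%. The left half-site TTCAGCACC of the neuronal repressor REST was in 1 channel window, that of Kcnh6. This was 0.73% of channel windows, against 0.37% of all. These matches describe letters in the windows and not binding.

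At day 0, before differentiation, 23 of the 72 tested members rose in Hira-null cells and 1 fell relative to WT, where 20.8% of all genes tested rose and 19.4% fell. The median log2 fold change was 0.25 for the members and 0.01 for all genes. Quantile normalization, an alternative scaling, gave 19 rises and 5 falls. By class, 7 of 18 calcium, 13 of 43 potassium, 1 of 5 sodium, 1 of 3 pacemaker and 1 of 3 ryanodine receptor genes rose, and the gene that fell was a potassium channel gene. Over all 142 members both Hira-null libraries lay above both WT libraries for 54 (38.0%) and below them for 14 (9.86%), against 23.7% and 20.9% of all genes in the table. Both genotypes held pluripotency markers at this day, with 5 markers summing to 2245 to 2250 FPKM in Hira-null cells and 2007 to 2012 FPKM in WT. The cardiomyocyte markers summed to 32.1 to 34.6 FPKM and 29.6 to 30.5 FPKM in the same order.

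On the log2(FPKM + 1) scale the T-type pore gene Cacna1h differed most at day 0. It was at 9.11 and 8.78 FPKM in Hira-null cells, against 1.42 and 1.24 FPKM in WT, a 6.73-fold difference (log2 fold change 2.1, SE 0.14, adjusted p 2.93e-05). It is among the genes whose exons overlap another gene, Tpsg1. The second T-type pore gene, Cacna1g, was at 0.938 and 1.16 FPKM in Hira-null cells and at 0.116 and 0.288 FPKM in WT (0.77, SE 0.15, adjusted p 0.00355). Kcnh2, the pore of the rapid delayed rectifier that ends the cardiac action potential, was at 6.26 and 6.98 FPKM in Hira-null cells, against 1.93 and 1.96 FPKM in WT (1.37, SE 0.16, adjusted p 3.47e-04). Hcn2, a pacemaker channel of heart and brain, was at 11.8 and 12 FPKM in Hira-null cells, against 5.61 and 5.70 FPKM in WT (0.96, SE 0.14, adjusted p 8.02e-04). Ryr1, the skeletal muscle ryanodine receptor, was at 4.44 and 4.86 FPKM in Hira-null cells and at 1.63 and 1.56 FPKM in WT (1.12, SE 0.17, adjusted p 0.00105). In these genes the Hira-null libraries lay above the WT libraries without overlap, and the calls held without any 1 library. Such an order was a condition for naming Cacna1h, Kcnh2 and Ryr1 at this day, so it is no support for them.

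Other rises at day 0 were in potassium channel genes and an alpha2delta subunit. Kcnk4, a mechanically gated 2-pore-domain channel of neurons, was at 1.34 and 1.57 FPKM in Hira-null cells, while WT libraries had 0.0783 and 0 FPKM, the first of these from 1 fragment (log2 fold change 1.24, SE 0.16, adjusted p 4.96e-04). Cacna2d2 was at 3.49 and 3.0 FPKM in Hira-null cells, against 1.03 and 0.619 FPKM in WT (1.23, SE 0.17, adjusted p 6.52e-04). Kcnc4, a fast potassium channel related to Kcnc1, was at 1.93 and 1.13 FPKM in Hira-null cells and at 0.135 and 0.118 FPKM in WT (1.15, SE 0.20, adjusted p 0.00228). Kcnd1, a pore of the transient outward type, was at 5.34 and 5.82 FPKM in Hira-null cells and at 2.60 and 1.77 FPKM in WT (1.06, SE 0.17, adjusted p 0.00132). The 1 gene that fell was Kcnk1, a weakly conducting 2-pore-domain channel, at 8.59 and 12.2 FPKM in Hira-null cells, against 16.8 and 16.0 FPKM in WT (−0.63, SE 0.17, adjusted p 0.0189). Its call was lost without Hira-null day 0 replicate 1 (adjusted p 0.151) or WT day 0 replicate 1 (0.0690).

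**Figure D3:**
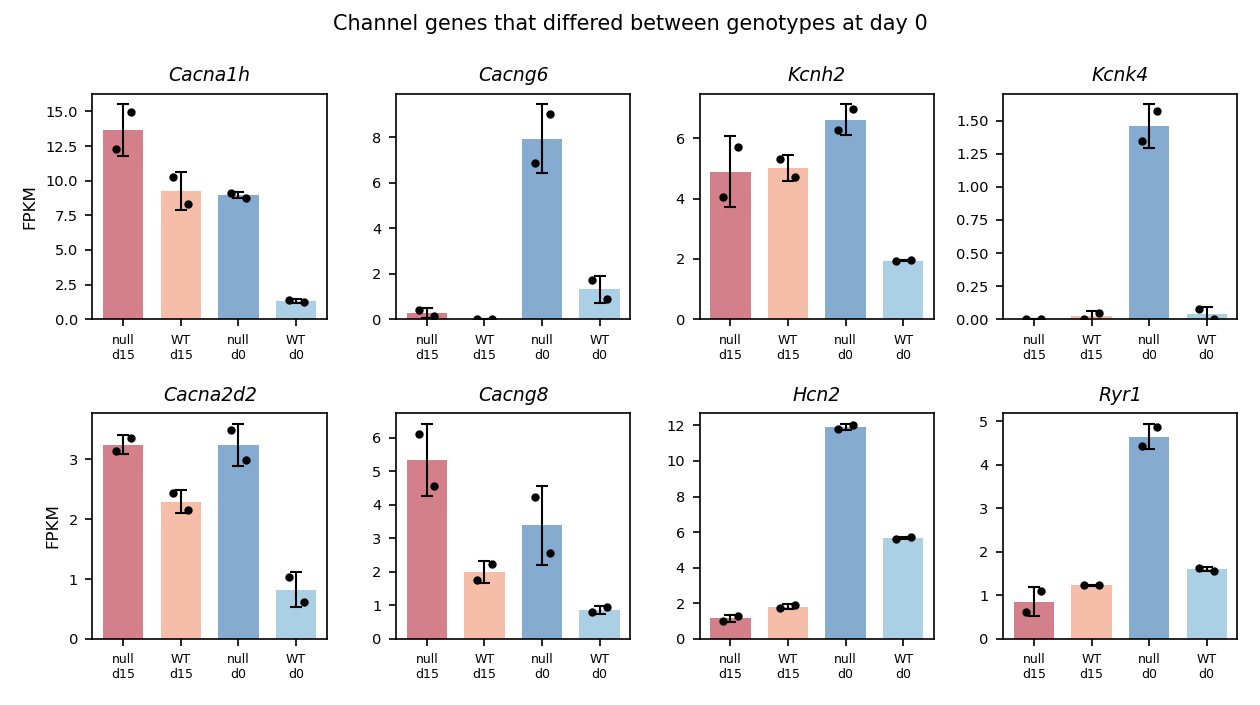
FPKM of 8 channel genes in the 4 groups, with bars for the mean, error bars for the SD and points for the 2 libraries of a group, and an axis of its own for each gene. All 8 are higher in Hira-null than in WT cells at day 0, and Cacng6, Kcnk4, Hcn2 and Ryr1 are lower at day 15 than at day 0 in the Hira-null line.

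A row of 3 neighbouring genes of the gamma subunit family rose together in Hira-null cells at day 0. Cacng7, Cacng8 and Cacng6 follow each other on chromosome 7 of mm9, from chr7:3333055-3367810 through chr7:3394567-3415366 to chr7:3425423-3435658, with gaps of 26.8 kb and 10.1 kb. Cacng7 and Cacng8 are known as partners of AMPA-type glutamate receptors, and Cacng6 as a relative of the gamma subunit of the skeletal muscle calcium channel. Cacng7 was at 24.4 and 22.8 FPKM in Hira-null cells, against 9.19 and 13.0 FPKM in WT (log2 fold change 1.04, SE 0.14, adjusted p 6.58e-04). Cacng8 was at 4.22 and 2.56 FPKM in Hira-null cells, against 0.788 and 0.943 FPKM in WT (1.21, SE 0.21, adjusted p 0.00247). Cacng6 was at 6.88 and 9.01 FPKM in Hira-null cells, against 1.74 and 0.907 FPKM in WT (1.96, SE 0.22, adjusted p 2.72e-04). At day 15 their levels parted. Cacng7 was at 25.2 and 23.5 FPKM in libraries labelled Hira-null, against 12.3 and 11.9 FPKM in WT (0.95, SE 0.15, adjusted p 0.00136), close to its day 0 levels in both genotypes. Cacng8 was at 6.10 and 4.57 FPKM and at 1.77 and 2.23 FPKM in the same order (1.07, SE 0.22, adjusted p 0.00576, and 0.0842 without WT day 15 replicate 1). Cacng6 was at 0.430 and 0.134 FPKM in libraries labelled Hira-null, was listed at 0 in both WT libraries and did not pass the test.

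The start windows of the outer genes of this row are shown because the 3 genes lie together, with coordinates and capitals as above (build GRCm38.p6, plus strand). Cacng7 is at chr7:3332575-3332874 and Cacng6 at chr7:3424412-3424711.
Cacng7: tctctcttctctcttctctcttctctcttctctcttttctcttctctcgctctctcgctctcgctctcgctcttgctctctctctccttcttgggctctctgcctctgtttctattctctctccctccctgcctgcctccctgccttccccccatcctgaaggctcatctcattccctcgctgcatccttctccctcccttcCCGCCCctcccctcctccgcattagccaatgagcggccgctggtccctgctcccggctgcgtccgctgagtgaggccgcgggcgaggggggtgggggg
Cacng6: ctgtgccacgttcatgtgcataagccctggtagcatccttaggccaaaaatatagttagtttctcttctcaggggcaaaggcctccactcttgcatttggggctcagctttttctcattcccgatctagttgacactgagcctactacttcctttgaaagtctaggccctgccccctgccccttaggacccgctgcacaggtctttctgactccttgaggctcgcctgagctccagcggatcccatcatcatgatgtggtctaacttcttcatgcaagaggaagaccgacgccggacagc
The Cacng7 window has 62.0% GC, 15 CG pairs and 1 SP1 core, and the Cacng6 window 52.7% GC, 8 CG pairs and neither motif. No capital appears in the Cacng6 window for that reason.

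The comparison of the days asked which channel genes changed with differentiation. In WT cells 36 of the 72 tested members rose at day 15 relative to day 0 and 14 fell, where 36.1% of all genes tested rose and 33.4% fell. In Hira-null cells, by label, 39 rose and 19 fell, where 37.5% rose and 36.4% fell. The medians of the members were 0.37 in WT and 0.58 in Hira-null cells, and those of all genes 0.03 and 0.01. With quantile normalization the WT counts were 24 rises and 22 falls, and the member median turned to −0.06 in WT, where that of all genes was also −0.06, and was 0.29 in Hira-null cells. Of the rises, 34 were shared, 34 of 36 in WT and 34 of 39 in Hira-null cells, and of the falls 13 were shared, 13 of 14 and 13 of 19. No member rose in one genotype and fell in the other. These overlaps were not counted over all genes, so they are not shown to be particular to the members. Over all 142 members, both day 15 libraries lay above both day 0 libraries for 78 (54.9%) in WT and 72 (50.7%) in Hira-null cells, against 30.8% and 30.1% of all genes in the table. They lay below for 23 (16.2%) and 33 (23.2%), against 26.0% and 28.4%.

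Cacna1g, the T-type pore typical of the embryonic heart and the sinoatrial node, rose most with differentiation on the log2(FPKM + 1) scale. In WT it was at 18.0 and 15.7 FPKM at day 15, against 0.116 and 0.288 FPKM at day 0 (log2 fold change 3.89, SE 0.15, adjusted p 1.46e-07), an 83.5-fold difference of means. In Hira-null cells it was at 25.1 and 28.2 FPKM at day 15, against 0.938 and 1.16 FPKM at day 0 (3.75, SE 0.15, adjusted p 1.02e-07), a 25.4-fold difference. The L-type pore gene Cacna1c rose by 2.08 (SE 0.15, adjusted p 4.00e-06) in WT and by 2.01 (SE 0.15, adjusted p 3.59e-06) in Hira-null cells, with day 0 levels between 0.0368 and 0.168 FPKM in the 4 libraries. Cacna2d1, the alpha2delta subunit of cardiac L-type channels, was at 7.86 and 9.51 FPKM at day 15 and at 0.725 and 1.15 FPKM at day 0 in WT (2.32, SE 0.17, adjusted p 3.83e-06). In Hira-null cells it was at 12.9 and 11.4 FPKM and at 0.758 and 0.896 FPKM in the same order (2.84, SE 0.17, adjusted p 8.17e-07). Kcnmb4 was listed at 0 in both WT libraries at day 0, and its day 15 mean of 4.70 FPKM was at least 11.6-fold higher, set against a floor of 3 fragments per library. Kcnj8 was at 0 and 0.0541 FPKM in WT at day 0, the second value from 1 fragment, and at 6.21 and 5.5 FPKM at day 15 (2.74, SE 0.16, adjusted p 9.80e-07).

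Other channel genes were lower at day 15 than at day 0. Hcn2 was at 1.73 and 1.90 FPKM at day 15 and at 5.61 and 5.70 FPKM at day 0 in WT cells (log2 fold change −1.24, SE 0.14, adjusted p 4.91e-05), and at 1.02 and 1.28 FPKM and 11.8 and 12 FPKM in Hira-null cells (−2.59, SE 0.14, adjusted p 4.31e-07). Kcnk5, an alkali-sensitive 2-pore-domain channel, was at 5.81 and 6.11 FPKM at day 15 and at 15.2 and 15.3 FPKM at day 0 in WT (−1.22, SE 0.10, adjusted p 9.98e-06). In Hira-null cells Kcnk5 was at 5.84 and 5.37 FPKM and at 22.7 and 24.4 FPKM in this order (−1.89, SE 0.10, adjusted p 5.32e-07). Cacng6, given above, fell by 1.19 (SE 0.23, adjusted p 0.00133) in WT and by 2.80 (SE 0.23, adjusted p 4.93e-06) in Hira-null cells. Kcng1 fell by 1.07 (SE 0.18) in WT and by 1.77 (SE 0.18) in Hira-null cells, with adjusted p of 6.05e-04 and 2.08e-05. Kcnn4, the intermediate-conductance calcium-activated channel of blood and epithelial cells, was at 0.104 and 0.335 FPKM at day 15 and at 1.2 and 1.98 FPKM at day 0 in WT (−1.08, SE 0.20, adjusted p 0.00126).

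The 29 channel genes that shape the cardiac action potential, listed from general knowledge, were then read as a group. Of the 22 tested, 15 rose and 4 fell with differentiation in WT, where 36.1% of all genes tested rose and 33.4% fell, and 14 rose and 4 fell in Hira-null cells, where 37.5% rose and 36.4% fell. The gene that made the difference in rises was Kcnh2, at 5.32 and 4.72 FPKM at day 15 and 1.93 and 1.96 FPKM at day 0 in WT cells (log2 fold change 1.03, SE 0.17, adjusted p 5.02e-04), and at 4.06 and 5.72 FPKM and 6.26 and 6.98 FPKM in Hira-null cells (−0.39, SE 0.17, adjusted p 0.0617). Between genotypes, 6 of the 22 rose and 2 fell in libraries labelled Hira-null at day 15, and 6 rose and none fell in Hira-null cells at day 0. Of all genes tested, 18.6% rose and 18.8% fell at day 15, and 20.8% rose and 19.4% fell at day 0. By limma none of the 22 fell at day 0 at an unadjusted p under 0.05 either, and limma-voom called none lower. Their median log2 fold changes were 0.07 and 0.14.

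The rises at day 15 in this group were the T-type pore genes, Cacnb2 and potassium channel pores. Kcnd3, a pore of the transient outward current, was at 4.15 and 4.83 FPKM in libraries labelled Hira-null, against 1.75 and 1.49 FPKM in WT (log2 fold change 1.07, SE 0.16, adjusted p 0.00132). Its relative Kcnd2 was at 1.23 and 1.02 FPKM and at 0.444 and 0.469 FPKM in the same order (0.54, SE 0.16, adjusted p 0.0293), a call lost without Hira-null day 15 replicate 1 (0.0734), WT day 15 replicate 1 (0.0985) or WT day 15 replicate 2 (0.0876). Cacnb2, the main cardiac beta subunit, was at 4.79 and 3.61 FPKM in libraries labelled Hira-null, against 1.98 and 2.38 FPKM in WT (0.70, adjusted p 0.0141). Without Hira-null day 15 replicate 1, WT day 15 replicate 1 or WT day 15 replicate 2 its adjusted p was 0.0606, 0.104 and 0.0533. Cacna1g rose by 0.63 (adjusted p 0.0114) and Cacna1h by 0.51 (adjusted p 0.0258), and each lost its call without Hira-null day 15 replicate 2, WT day 15 replicate 1 or WT day 15 replicate 2, with adjusted p of 0.0632 to 0.134 for Cacna1g and 0.0637 to 0.220 for Cacna1h. A pseudocount of 0.1 also ended the calls of Cacna1g, Cacnb2 and Kcnd2 (0.103 to 0.126).

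Several defining channels of the heart did not pass the limma test at day 15. Hcn4, the leading pacemaker channel of the sinoatrial node, was at 2.22 and 2.74 FPKM in libraries labelled Hira-null, against 2.43 and 1.6 FPKM in WT, and the genotypes overlapped (log2 fold change 0.22, SE 0.19, adjusted p 0.412). Kcnj2, the main inward rectifier of the ventricle, was at 4.02 and 4.22 FPKM in libraries labelled Hira-null, against 2.88 and 3.05 FPKM in WT (0.37, SE 0.16, adjusted p 0.0967), and limma-voom called it higher (0.47, adjusted p 0.0355). Kcnj3, a pore of the acetylcholine-activated current of the atrium, was at 1.46 and 1.17 FPKM and at 1.47 and 1.83 FPKM in the same order (adjusted p 0.419). Its partner Kcnj5 was not tested and read 0.0749 and 0.491 FPKM in libraries labelled Hira-null, against 1.65 and 0.949 FPKM in WT. Kcnk3, an acid-sensitive background channel, was at 1.03 and 0.745 FPKM in libraries labelled Hira-null, against 1.98 and 1.66 FPKM in WT (−0.58, SE 0.20, adjusted p 0.0525), and limma-voom called it lower (−1.03, adjusted p 0.0411). Kcna5, the ultrarapid delayed rectifier of the atrium, was at 1.08 and 1.29 FPKM and 0.989 and 0.852 FPKM (adjusted p 0.399). Kcnip2, the KChIP subunit of the transient outward current, was at 0.405 and 0.169 FPKM in libraries labelled Hira-null, against 0.724 and 0.377 FPKM in WT (adjusted p 0.288). Kcnj11, Kcnq1, Kcne1 and Scn4b were below FPKM 1 in every library. Summed cardiomyocyte markers were lower in the libraries labelled Hira-null at this day (165 to 168 FPKM, against 241 to 253 FPKM in WT), and their part in these values was not tested.

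**Figure D4:**
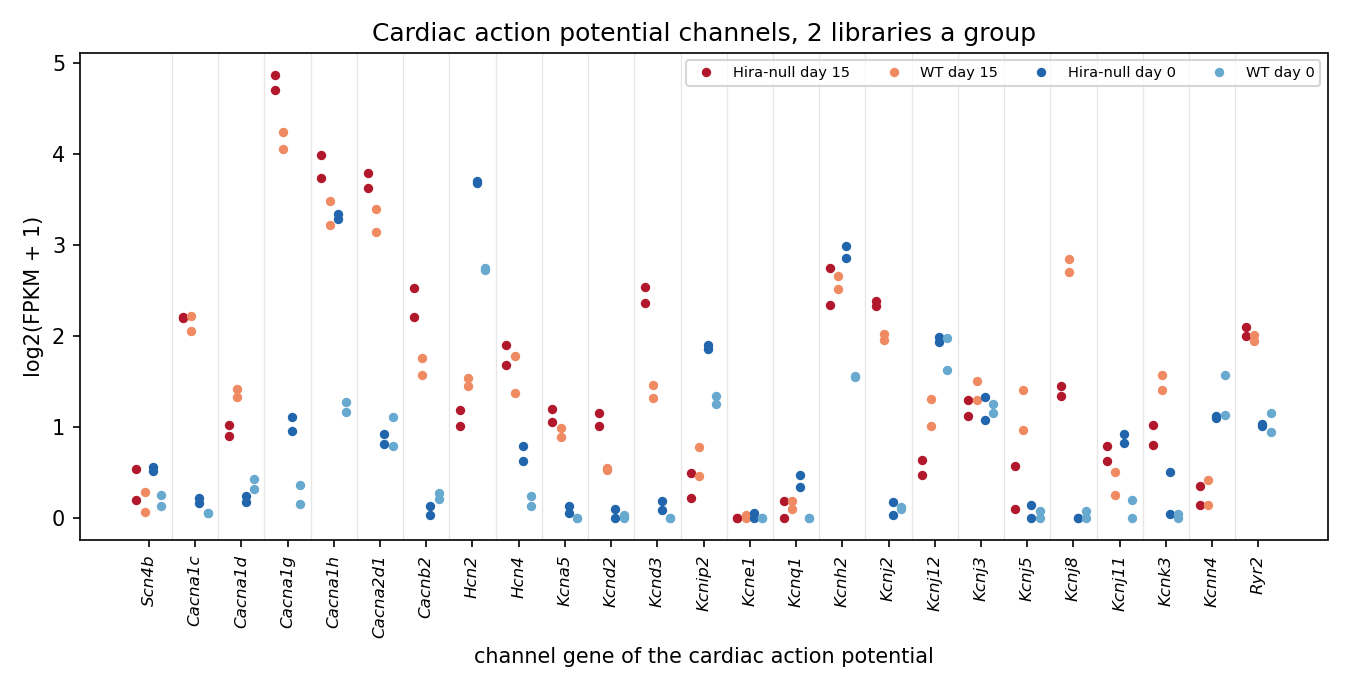
Level of 25 of the 29 channel genes of the cardiac action potential as log2(FPKM + 1), with 1 point per library, coloured by group. Cacna1g stands highest, with Hira-null above WT at day 15, Kcnj8 is highest in WT at day 15, and Hcn2 and Kcnip2 are highest in Hira-null cells at day 0.

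The genotype effect itself differed between the days for 26 of the 72 tested members. The day 15 effect minus the day 0 effect was positive for 10 and negative for 16, where 17.5% and 17.7% of all genes tested passed in these directions. Without WT day 15 replicate 1, WT day 15 replicate 2 or Hira-null day 0 replicate 1, fewer members passed, as did fewer of all genes tested. The median difference of the members was then 0.01, 0.01 and −0.01, against 0.03 with all libraries. Quantile normalization gave 14 positive and 10 negative differences. Scn3a had the largest positive difference (1.73, SE 0.25, adjusted p 0.00155). At day 0 it was at 0.107 and 0.107 FPKM in Hira-null cells, against 0.284 and 0.594 FPKM in WT, the opposite order to day 15, although the day 0 difference did not pass the test (−0.37, SE 0.18, adjusted p 0.131) and limma-voom called it lower (−1.91, adjusted p 0.022). Ryr3 behaved alike (1.47, SE 0.22, adjusted p 0.00180), with 0.113 and 0.155 FPKM in Hira-null cells and 0.362 and 0.476 FPKM in WT at day 0, which limma-voom called lower (−1.61, adjusted p 0.00775). Kcnk2 (1.61, SE 0.28, adjusted p 0.00322) and Kcnc1 (1.26, SE 0.22, adjusted p 0.00316) were near 0 in both genotypes at day 0, with at most 10 fragments in a library.

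Among the differences of the other sign were genes that were higher in Hira-null cells at day 0 and stood closer to WT at day 15. Cacna1h (−1.58, SE 0.21, adjusted p 9.46e-04) was at 12.3 and 15 FPKM in libraries labelled Hira-null, against 10.2 and 8.31 FPKM in WT at day 15, beside its 6.73-fold gap at day 0. Kcnh2 (−1.41, SE 0.23, adjusted p 0.00261), Ryr1 (−1.40, SE 0.24, adjusted p 0.00304) and Hcn2 (−1.35, SE 0.20, adjusted p 0.00144) did not pass the limma genotype test at day 15. Ryr1 was then at 0.614 and 1.09 FPKM in libraries labelled Hira-null, against 1.24 and 1.23 FPKM in WT, which limma-voom called lower (−0.57, adjusted p 0.0341). Cacng6 had the largest negative value (−1.61, SE 0.32, adjusted p 0.00581). For several of these genes the call depended on the scale of the fit. With limma-voom on recovered fragments the difference did not pass for Cacng6 (−0.24, adjusted p 0.917), Kcnc1 (0.08, adjusted p 0.962), Kcnk2 (1.54, adjusted p 0.455) or Kcnj8 (−1.02, adjusted p 0.629). It passed for Scn3a, Ryr3, Cacna1h, Kcnh2, Ryr1 and Hcn2 there too. A pseudocount of 0.1 ended the same 4 calls, with adjusted p of 0.461 for Cacng6, 0.103 for Kcnc1, 0.0739 for Kcnk2 and 0.0877 for Kcnj8.

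**Figure D5:**
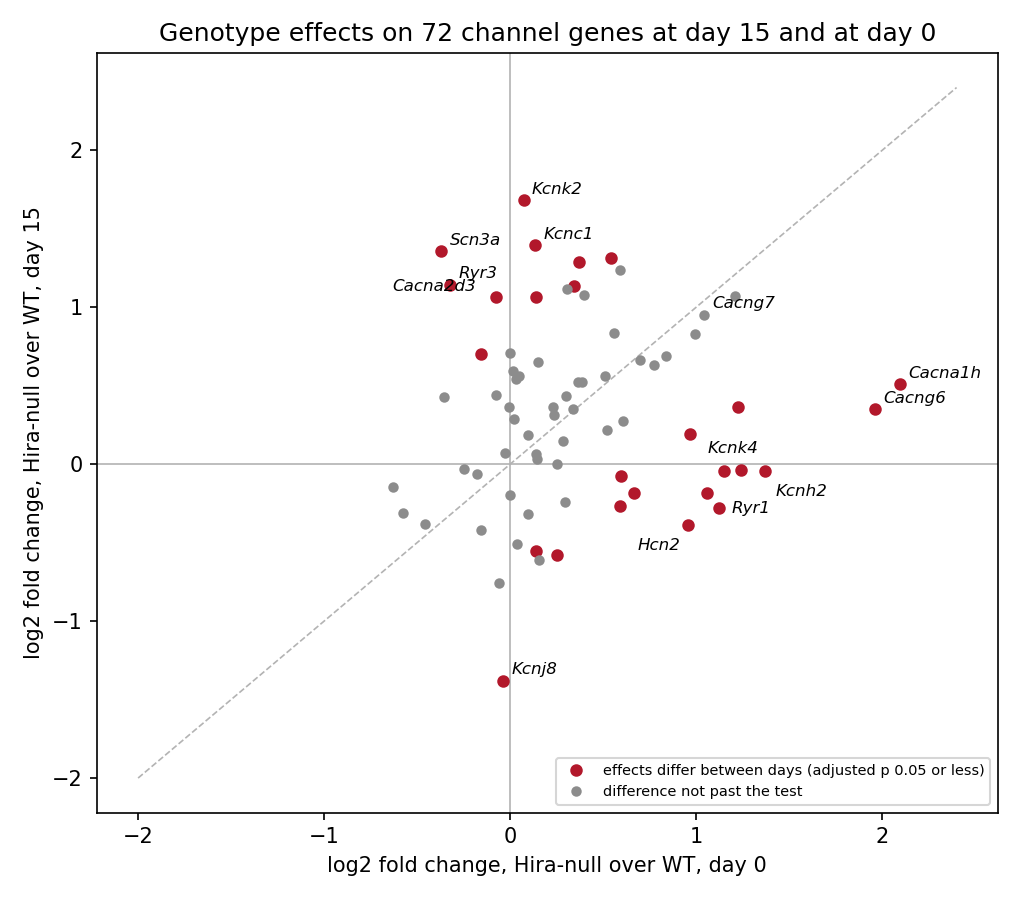
Log2 fold change of Hira-null over WT on the log2(FPKM + 1) scale at day 15 (vertical axis) against that at day 0 (horizontal axis) for the 72 tested channel genes. Red points passed the test of the difference between the days, and the dashed line marks equal effects. Scn3a and Kcnk2 lie high and near the vertical axis, Cacna1h lies far to the right, and Cacng7 lies near the line.

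Across the 2 days, 11 members rose in Hira-null cells at both, which is 11 of the 25 rises at day 15 and 11 of the 23 at day 0, 14 passed as rises at day 15 and did not pass at day 0, and 12 the other way round. Of all genes tested, 5.53% rose at both days, 11.0% passed so at day 15 and not at day 0, and 12.2% the other way round. The test of the difference between the days passed for 9 of those 14 members and for all of those 12, and 29 of the 72 passed at neither day. For the counts in this last sentence the shares over all genes were not taken. Cacng7, with its near equal values at both days, is the clearest of the shared ones, with a difference between days of −0.09 (SE 0.20, adjusted p 0.761). The Kvbeta subunit gene Kcnab2, named here after its values were seen, also rose at both days, by 0.69 at day 15 and by 0.84 at day 0. The day 15 call of Kcnab2 was lost without WT day 15 replicate 2 (adjusted p 0.0850). Kcna6 rose at both days, but its day 0 call (0.59) was lost without Hira-null day 0 replicate 1 (adjusted p 0.172), WT day 0 replicate 1 (0.0750) or WT day 0 replicate 2 (0.0524).

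Genes that work with these channels were read from lists drawn up from general knowledge. Of 22 tested anchoring and partner proteins, 12 rose and 3 fell in libraries labelled Hira-null at day 15, with a median log2 fold change of 0.68, where 18.6% of all genes tested rose and 18.8% fell. These shares are also the ones to set beside the lists that follow. Ank2, an ankyrin that anchors ion transporters such as the sodium-calcium exchanger, was at 17.5 and 18.9 FPKM in libraries labelled Hira-null, against 8.24 and 8.86 FPKM in WT (1.0, adjusted p 0.00121). Akap9, a scaffold of the slow delayed rectifier, was at 33.4 and 32.8 FPKM and at 15.8 and 16.9 FPKM in the same order (0.98, adjusted p 2.53e-04). The 3 falls were Stac2, Fgf11 and Cntnap1, with log2 fold changes of −0.87, −0.72 and −0.67. Of 22 partners of cardiac calcium handling, 6 rose and 4 fell, with a median of −0.03. The falls were S100a1 (−1.46), Itpr2 (−0.79), Itpr3 (−0.47) and Asph (−0.41). Casq2, the cardiac calcium buffer that binds ryanodine receptors, was at 3.62 and 3.80 FPKM in libraries labelled Hira-null, against 0.760 and 0.543 FPKM in WT (1.51, adjusted p 2.38e-04), while phospholamban (Pln) was at 1.95 and 0.678 FPKM and 2.27 and 2.34 FPKM and did not pass. Of 21 tested genes for other cation channels 5 rose and 2 fell, the falls being Trpv2 (−0.97) and Orai3 (−0.74). Among the rises, Unc79, a subunit of the sodium leak channel complex, was at 4.16 and 3.88 FPKM in libraries labelled Hira-null, against 0.383 and 0.520 FPKM in WT. Of the 8 genes of the REST complex, which silences neuronal channel genes outside neurons, 1 rose and 1 fell, and Rest itself was at 54.1 and 57.2 FPKM in libraries labelled Hira-null, against 56.4 and 56.7 FPKM in WT. The genes given with FPKM values were picked from their lists after their values were seen. Casq2, Unc79, Lgi1, Dpp6, Cntnap2 and Nalcn, all counted among the rises, reached FPKM 1 only in Hira-null at day 15. Cntnap1, counted among the falls, reached it only in WT at day 15. Passing the filter required these genes to be higher in that group, so the counts of these lists are no support for a direction.

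The 70 untested members were low in all 8 libraries. Some still had groups that did not overlap at day 15, and those named here were chosen after their values were seen. Over all 142 members, tested or not, this held for 70 (49.3%) with Hira-null higher and 25 (17.6%) with Hira-null lower. Of all genes in the table, 24.3% and 23.4% did so. Kcnh5 and Kcnh8, pores of the EAG and ELK families, were at 0.94 and 1.63 FPKM and at 1.15 and 0.882 FPKM in libraries labelled Hira-null, against 0.340 and 0.168 FPKM and 0.149 and 0.239 FPKM in WT. Kcne4, a KCNE subunit, was at 0.0456 and 0.128 FPKM in libraries labelled Hira-null, against 0.862 and 1.39 FPKM in WT. These day 15 values rest on 1 to 63 fragments a library. The 2 antisense transcripts of Kcnmb4 stayed below FPKM 1.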

How the data were processed

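RNA was sequenced in 8 libraries, 2 in each of 4 groups, from a stranded mRNA kit with paired ends. The authors aligned reads to mm9 with Bowtie (version 0.12.2 in the submitters' notes) and deposited FPKM values for 24421 genes. The FPKM tool, and whether counting used strand, are not given in the sources used here. The deposited tables of the authors' own comparisons (DESeq2 1.6.3: fold changes and p-values) were not used, and 27 gene symbols turned into dates were not used as names. Fragments recovered from the FPKM steps came out whole within 0.1 for 100% of positive values, with 6913871 to 11106321 per library. Precision covers counting error only.

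All 14337 genes with an FPKM of at least 1 in 2 or more libraries were fitted with limma 3.58.1 (R 4.3.3) on log2(FPKM + 1), as 4 group means with 1 weight per day, a trended empirical Bayes variance, with p-values adjusted by Benjamini-Hochberg and a threshold of 0.05. The fit had 4 residual degrees of freedom and was tested on simulated data. P-values measure the spread between 2 samples a group. Named genes were the 10 largest changes in each direction by genotype, the 6 by day and the 5 by the difference, among those past the threshold (for genotype and day, without overlap between groups), and all cardiac action potential channels. Some genes that the rule names are not reported here. Members and lists were chosen with earlier results of these data known. Positions of 140 members come from the NCBIM37 annotation, and promoters from RefSeq (GRCm38.p6). Alternatives were another pseudocount, filter, scaling or weighting, a replicate block, fits of the compared groups alone, each library left out and, chosen after seeing the data, limma-voom on recovered fragments and the count without members whose exons overlap another gene.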

Additional observations from a re-analysis of the deposited data

Results flagged for a closer look

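Of the named channel genes, 23 had a genotype effect that differed between the days by the test of the difference itself (limma, adjusted p 0.05 or less), with 9 positive and 14 negative differences. Of all genes tested, 17.5% and 17.7% passed in these directions, but some of the 23 were named by this same test. Kcnk2, Kcnc1, Ryr3 and Cacna2d3 passed the filter only through Hira-null at day 15, and Kcnk4 and Kcnc4 only through Hira-null at day 0. The filter favoured the direction of their differences, which is no support. Each difference below is the log2 fold change of Hira-null over WT at day 15 minus that at day 0. Among neuronal sodium and potassium channel genes it was 1.73 for Scn3a, 1.61 for Kcnk2, 1.26 for Kcnc1 and 0.91 for Scn3b. For the ryanodine receptor gene Ryr3 it was 1.47, for the calcium channel subunit genes Cacna2d3, Cacnb2 and Cacnb3 it was 1.14, 0.86 and 0.79, and for Kcnd3 it was 0.93. The negative differences of calcium channel genes were −1.61 for Cacng6, −1.58 for Cacna1h and −0.86 for Cacna2d2. Ryr1 had −1.40 and the pacemaker gene Hcn2 had −1.35. Among potassium channel genes the values were −1.41 for Kcnh2, −1.34 for Kcnj8, −1.28 for Kcnk4, −1.24 for Kcnd1, −1.19 for Kcnc4, −0.85 for Kcnip2, −0.83 for Kcnk3, −0.69 for Kcnt2 and −0.67 for Kcnk5.

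The calls of 9 of these genes did not hold when single libraries were left out. For Kcnt2 any 1 of the 8 libraries ended the call (adjusted p 0.0589 to 0.133). For Kcnk3 any library but Hira-null day 0 replicate 2 did so (0.0520 to 0.159), and for Scn3b any but Hira-null day 0 replicate 2 and WT day 0 replicate 1 (0.0537 to 0.110). Cacnb3 lost its call without WT day 15 replicate 2 (0.0578), and Kcnc4 without that library (0.0571) or Hira-null day 0 replicate 1 (0.0510). Cacna2d3 lost it without either WT day 15 library, Hira-null day 0 replicate 2 or WT day 0 replicate 1 (0.0544 to 0.0823). Cacna2d2 lost it without Hira-null day 15 replicate 1, either WT day 15 library, Hira-null day 0 replicate 1 or WT day 0 replicate 2 (0.0572 to 0.102). Cacnb2 lost it without Hira-null day 15 replicate 1, WT day 15 replicate 1, either Hira-null day 0 library or WT day 0 replicate 2 (0.0572 to 0.0916). Kcnip2 lost it without Hira-null day 15 replicate 2, WT day 15 replicate 1, either Hira-null day 0 library or WT day 0 replicate 2 (0.0680 to 0.103).

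The scale of the fit also changed calls. With a pseudocount of 0.1 the difference did not pass for Kcnk2, Kcnc1, Scn3b, Kcnj8, Kcnt2, Cacng6, Kcnip2, Cacna2d3, Kcnd3 or Kcnk3 (adjusted p 0.0604 to 0.599). With limma-voom on recovered fragments it did not pass for Kcnk2, Kcnc1, Kcnj8, Kcnt2, Cacng6, Kcnip2, Cacnb2 or Kcnk3 (0.0544 to 0.962), and Kcnd3 changed sign.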

How the results depend on the processing

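Counts of channel genes past the threshold moved by over 1.5 times under these alternatives. At day 15, 25 of 72 tested members rose, and 16 of 51 with FPKM 1 required in at least 4 libraries. Of all genes, 18.6% rose under either filter. The 5 falls were 9 of 139 with no filter, where 13.2% of all genes fell, against 18.8% in the main fit. Among the 72 they were 9 with limma-voom and 3 with the replicate block. At day 0 the 1 fall was 3 and 2 with pseudocounts of 0.1 and 0.5, 5 with quantile normalization, 4 with limma-voom and 2 with the block. The 14 falls with differentiation in WT were 22 with quantile normalization. The 39 rises of 72 in Hira-null cells were 60 of 139 with no filter and 25 of 51 with the filter at 4 libraries. Of all genes, 37.5%, 30.6% and 37.6% rose in this order. For the difference between days, the 10 positive calls of 72 were 4 with a pseudocount of 0.1. They were 16 of 139 with no filter and 5 of 51 with the filter at 4 libraries. Of all genes, 17.5%, 14.7%, 12.4% and 17.7% passed in this order. The 16 negative calls were 10 with quantile normalization. Values changed sign for Ryr3 (−0.53, against 0.01) with differentiation in WT under quantile normalization, and for the difference of Kcnd3 under limma-voom (−2.03, against 0.93). The filter changes which genes are counted, and the cause of the other shifts was not tested. With 1 library left out, rises and falls ran from 14 to 27 and 1 to 6 at day 15, 17 to 24 and 0 to 2 at day 0, 30 to 36 and 10 to 15 in WT with differentiation, 35 to 38 and 14 to 19 in Hira-null cells, and 6 to 10 and 9 to 13 for the difference. Leaving 1 library assumes that it varies like the other groups. Beside the calls named with their results, Kcnj12 lost its fall at day 15 with no filter (adjusted p 0.0552), quantile normalization (0.0776) and the block (0.0511), Kcnt2 with a pseudocount of 0.1 (0.0945), and Kcnk6 with no filter (0.0609) and the block (0.0669). Kcnd2 lost its rise with the block (0.0607), and at day 0 Kcnk1 lost its fall in a fit of the compared groups alone (0.0815). Without the members whose exons overlap another gene, 17 of 55 rose and 5 fell at day 15, where 18.6% of all genes rose and 18.8% fell. Replicate numbers did not pair the samples (correlations of replicate differences between groups from −0.0967 to 0.0455), and the replicate block gave 24 rises and 3 falls at day 15. Genes near 1 FPKM rest on few fragments, which limits their folds.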
